A study of Homo sapiens with 19 samples.

Results

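The genes described here are 6 claudins (CLDN3, CLDN4, CLDN6, CLDN7, CLDN10 and CLDN12) and 3 other tight junction genes (OCLN, TJP1 and F11R), followed through the first 3 days in which a line of human embryonic stem cells (hESCs) was driven towards brown adipocytes (BAs). They were chosen by name, and their probes were found through the RefSeq transcript that the array files give for each probe. The 9 genes had 13 probes, out of 50683 probes and 20503 gene symbols on the array, and all 13 were well above background on all 19 arrays. CLDN7, CLDN12, OCLN and F11R had 2 probes each, and each of these genes was represented by its brighter probe.

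Tight junctions are belts of contact just below the apical surface of epithelial cells, which seal the space between neighbours and separate the apical from the basolateral membrane. Claudins, which cross the membrane and bind claudins of the next cell, form the strands of the belt and set which ions pass. Occludin (OCLN) lies in the same strands, the junctional adhesion molecule A (F11R) is an immunoglobulin-like adhesion protein beside them, and ZO-1 (TJP1) is a scaffold on the inner side that ties claudins and occludin to actin. Human pluripotent stem cells grow as an epithelium and are known to express several claudins, among them CLDN6, and an epithelium loses such junctions where its cells turn into mesenchyme.

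The cells were KhES-3, an hESC line, and every sample shares this line and this induction, with no uninduced or 0 h sample. Per the labels, the cells were kept on irradiated mouse embryonic fibroblasts, whereas the study's methods state a feeder-free system. They were induced in low-attachment dishes in a serum-free mixture of Ham's F12 and IMDM with insulin, transferrin, selenium, bovine albumin, synthetic lipids, ascorbic acid phosphate, monothioglycerol, Glutamax, a hybridoma supplement and the factors BMP4, IGF-II, IL-6, KITLG, FLT3LG and VEGFA. RNA was taken at 19 time points, at 3 and 4 h, then every 2 h up to 16 h, every 4 h up to 36 h and every 6 h up to 72 h. There was 1 Agilent array of a single colour (Cy3) per time point and no replicate, so that p-values measure the scatter of the 19 arrays around a curve and not the spread between cultures.

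The arrays sat on 3 slides. Slide 1 carried 3 to 12 h (6 arrays), slide 2 carried 14 to 42 h (8 arrays) and slide 3, which was scanned on a later day, carried 48 to 72 h (5 arrays), so that slide and time cannot be told apart where a gene steps between them. Signals are background-subtracted intensities brought to a common 75th percentile of 871, from array percentiles of 655 to 1003. Between 49.6% and 64.7% of the probes that are not controls were well above background (median 61.0%). The lowest shares were at 14, 16 (52.0%) and 72 h (53.8%). Of 10 pluripotency markers, 9 had a probe, and none of these was below background on any array. Of 10 fibroblast markers, COL1A1, COL1A2, COL5A1, THY1 and PDGFRA were well above background on all 19 arrays. PDGFRB was so on 17 arrays, DCN on 9, POSTN on 2 and COL3A1 and LUM on 1 array each. The summed signal of the list ranged from 40544 to 43790 at 3 to 6 h and from 30872 to 48326 at 60 to 72 h. THY1 was the largest part of it, with means of 28028 and 23521 in these windows, so that the sum mainly follows this 1 gene. The part of feeder cells in any result was not tested. In RNA of whole cultures, fewer cells of a type and less RNA per cell cannot be told apart.

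CLDN3 and CLDN4 are neighbours on chromosome 7, at chr7:73768997-73770270 on the minus strand and chr7:73830996-73832690 on the plus strand (GRCh38.p14), with 60.7 kilobases between their annotated ends. The 250 bases before the start site of each, at chr7:73770271-73770520 and chr7:73830746-73830995, are shown because these neighbours followed different courses, and those of CLDN6, at chr16:3018184-3018433 on the minus strand, because its fall was called under every setting tried. Each is written 5′ to 3′ on the gene's strand, from RefSeq, and capitals mark GGGCGG on either strand (CCGCCC on the opposite one), the GC box to which SP1 is known to bind.
CLDN3: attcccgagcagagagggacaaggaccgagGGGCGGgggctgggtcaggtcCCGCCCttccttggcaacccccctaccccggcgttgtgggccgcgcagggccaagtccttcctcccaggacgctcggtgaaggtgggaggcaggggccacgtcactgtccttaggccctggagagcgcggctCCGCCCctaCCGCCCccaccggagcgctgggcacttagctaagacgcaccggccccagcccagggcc
CLDN4: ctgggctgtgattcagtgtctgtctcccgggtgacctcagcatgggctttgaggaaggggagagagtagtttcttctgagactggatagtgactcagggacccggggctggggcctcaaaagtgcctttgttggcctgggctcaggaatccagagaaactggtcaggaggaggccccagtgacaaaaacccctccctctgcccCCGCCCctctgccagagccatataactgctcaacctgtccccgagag
CLDN6: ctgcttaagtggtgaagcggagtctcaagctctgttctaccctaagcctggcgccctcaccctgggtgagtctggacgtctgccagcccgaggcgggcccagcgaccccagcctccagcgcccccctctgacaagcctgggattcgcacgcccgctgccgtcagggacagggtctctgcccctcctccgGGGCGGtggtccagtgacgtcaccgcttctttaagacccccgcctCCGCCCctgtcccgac
GGGCGG occurred 4 times in the window of CLDN3, once in that of CLDN4 and 2 times in that of CLDN6. It was present in 42.6% of all 35116 windows of this length, and in 9 of the 14 windows of the 8 genes that had one in the table. CACCTG, an E-box to which the SNAIL and ZEB repressors bind, was in none of these 3 windows. It was present in 17.5% of all windows and in 4 of the 14 windows of these genes. It occurred 4 times in the windows of CLDN7, all in the same window, 2 times in those of OCLN and once in those of TJP1, all counted on both strands. AACCNGTT, the motif of the grainyhead factors, was in none of the 14 windows and in 1.49% of all windows. A match is a run of letters and not a tested site.

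Of the 9 genes, 1 rose (CLDN3) and 4 fell (CLDN6, CLDN7, CLDN10 and TJP1) as a straight line in hours (limma, adjusted p under 0.05 over 32113 probes), and 7 changed under a curve of any shape (a cubic polynomial). Over all 16694 genes tested, 24.6% rose, 29.8% fell and 79.6% changed under the curve. A set of 9 genes is small for comparing such shares and no test of the set was run, so that the counts are no result about the junction. Within the span of a single slide, 1 of the 9 rose and 0 fell from 3 to 12 h (CLDN4, where 5.42% of all genes passed, 2.11% rising and 3.31% falling). From 14 to 42 h, 0 rose and 1 fell (TJP1, where 18.7% passed, 9.64% rising and 9.09% falling), and from 48 to 72 h, 0 rose and 3 fell (CLDN6, CLDN10 and TJP1, where 23.5% passed, 9.03% rising and 14.4% falling). The slopes of the slides differed for 4 of the 9 (CLDN4, CLDN10, OCLN and TJP1) and for 25.5% of all genes. Scaling to the median of each array turned the split into 0 rising and 7 falling, and scaling to the spike-in RNA into 0 rising and 6 falling. The median of all probes tested lay 0.13 higher on the log2 scale at 60 to 72 h than at 3 to 6 h under the 75th percentile, 0.24 lower under the median (a difference of -0.24) and 0.52 lower under the spike-in RNA (-0.52). Relative to that median of all probes, the difference between these windows was 0.35 for CLDN3, -0.04 for CLDN4, -0.78 for CLDN6, -0.38 for CLDN7, -1.12 for CLDN10, -0.04 for CLDN12, -0.46 for OCLN, -0.74 for TJP1 and -0.06 for F11R, under each of these 3 scalings. With normexp and quantile normalization, which reshape the values as well, it was 0.71, 0.25, -0.41, -0.01, -0.86, 0.16, -0.38, -0.45 and 0.25 for the genes in the same order. Over genes by their brightest probe, the median under the 75th percentile was -0.05 and not 0.13. Under that scaling, the signs of CLDN4, CLDN12 and F11R therefore depend on which median is the reference.

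CLDN6, a claudin of embryonic epithelia and of undifferentiated stem cells (chr16:3014712-3018183), fell steadily. Its signal was 18816 and 18933 at 3 and 4 h, 15767 in the median over the 19 arrays, 14569 at 32 h and lowest at 72 h, with 11180. The 3 arrays from 60 h on were the 3 lowest of all. The slope was -0.00971 ± 0.0011 log2 units per hour (SE, n = 19 arrays, limma adjusted p = 8.48e-07), and the mean of 60, 66 and 72 h (11798) was 1.57 times lower than the mean of 3, 4 and 6 h (18541). The call held when the slide was a block (-0.0114, limma adjusted p = 0.021), and the slopes of the separate slides were -0.0116 from 3 to 12 h, -0.00914 from 14 to 42 h and -0.0157 from 48 to 72 h. The last of these passed the test on its own (limma adjusted p = 0.0278).

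CLDN4, a sealing claudin of many simple epithelia, moved in the other sense first. Its signal was 3361 and 3724 at 3 and 4 h, then 8844, 10295 and 10331 at 6, 8 and 10 h. It was highest at 14 h, with 11729, which was 3.49 times the 3 h value, and from there it went down to 7554 at 32 h and, by 72 h, to 4408. The arrays at 3 and 4 h were the lowest of the 19, and all later ones lay above them. The step from 3 to 6 h was 2.63-fold (2.32-fold to 2.63-fold under the scalings tried), and 130 of 16693 genes (0.779%) rose as much or more between these 2 arrays. Over slide 1, CLDN4 had a slope of 0.186 ± 0.0342 log2 units per hour (6 arrays on the slide, pooled scatter, limma adjusted p = 0.00781). On slide 2 it was -0.0283 ± 0.0102 (8 arrays, limma adjusted p = 0.0714) and on slide 3 -0.0143 ± 0.014 (5 arrays, limma adjusted p = 0.522). The slopes of the 3 slides differed (limma F test, adjusted p = 0.00254).

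A straight line over all hours missed this course. The slope of CLDN4 was -0.00858 ± 0.00505 (limma adjusted p = 0.16). It passed as a fall without the 3 h array (-0.013, limma adjusted p = 0.0131) or the 4 h array (-0.0123, limma adjusted p = 0.0272), and under the array median and the spike-in RNA. The curve passed (limma adjusted p = 0.0066). The late mean (5094) was close to the early mean (4802), but the early window holds very different values (3361, 3724 and 8844). Without the 6 h array the difference between these windows was 0.53 on the log2 scale instead of 0.09. The highest value lay on the 14 h array, which had the fewest probes well above background. The value before it, at 12 h, was 9819, and the one after it, at 16 h, 11113.

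CLDN3, the neighbour of CLDN4 and also a sealing claudin, rose later and less. Its signal was 7529 at 3 h, lowest at 6 h with 6529, 9485 at 14 h, highest at 32 h with 12790 and finally 10621, with a median of 9239. All arrays from 14 h on lay above the 5 arrays from 3 to 10 h. The slope was 0.0064 ± 0.00255 log2 units per hour (limma adjusted p = 0.0407) and the curve passed (limma adjusted p = 0.000851). The slope kept its call under some settings and lost it under others. With normexp and quantile normalization it was 0.00966 (limma adjusted p = 0.00412) and from 3 to 54 h 0.0103 (limma adjusted p = 0.034). On log2 hours it passed too (limma adjusted p = 0.00366). It was 0.00114 under the array median (limma adjusted p = 0.699), had the opposite sign under the spike-in RNA (-0.00206, limma adjusted p = 0.744), and lost the call with the slide as a block (0.0114, limma adjusted p = 0.151) and without the 3, 4, 6, 8, 10, 42, 60 or 72 h array (limma adjusted p up to 0.0848 without 6 h).

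CLDN10, a claudin that forms ion channels, had the widest range of the 9 brighter probes (chr13:95433755-95579759). Its signal was 1279 at 3 h and 1721 at 12 h. At 14 h it rose to 2327, on the array with the fewest probes well above background. The signal was 1864 at 16 h and still 1988 at 36 h. It then fell to 1460, 1203, 947, 770 and 440 on the 5 arrays of slide 3, the last 5.28 times lower than the highest. Each of these 5 lay below the one before it. From 48 to 72 h the slope was -0.0683 ± 0.00692 log2 units per hour (n = 5 arrays, limma adjusted p = 2.54e-05), against 0.0489 ± 0.0168 on slide 1 (limma adjusted p = 0.116) and -0.00873 ± 0.00504 on slide 2 (limma adjusted p = 0.249). The slopes of the slides differed (limma F test, adjusted p = 0.000294), and the curve passed with (limma adjusted p = 6.41e-05) and without the slide as a block (3.12e-09).

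The straight line for CLDN10 rested on its last arrays. The slope was -0.0169 ± 0.0046 (limma adjusted p = 0.00459) over all hours and 3.57e-05 (limma adjusted p = 0.995) from 3 to 54 h. It was lost on log2 hours (limma adjusted p = 0.18) and with the slide as a block (-0.0251, limma adjusted p = 0.0827). The late mean (685) was 0.504 of the early mean (1358), a log2 difference of -0.99, and -0.67 without the 72 h array. That array had the third lowest share of probes well above background.

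CLDN7, an epithelial claudin that lies along the lateral membrane as well (chr17:7259903-7263213), changed little on its brighter probe. The signal was between 9076 at 66 h and 12810 at 8 h (median 11587), with a slope of -0.00449 ± 0.00109 log2 units per hour (limma adjusted p = 0.00202). This call was lost with normexp and quantile normalization (-0.000206, limma adjusted p = 0.906) and with the slide as a block (-0.00112, limma adjusted p = 0.844). The dimmer probe for the same transcript took another course, from 4144 at 4 h down to 2318 at 36 h and back to 3482 at 72 h. On that probe the slope was -0.0149 ± 0.00424 from 14 to 42 h (limma adjusted p = 0.0279) and 0.0237 ± 0.00582 from 48 to 72 h (limma adjusted p = 0.01), a difference that passed the test (limma F test, adjusted p = 0.00469). The log2 distance between the 2 probes ranged from 1.39 at 66 h to 2.27 at 36 h.

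CLDN12, a claudin that lacks the usual end for binding ZO-1 (chr7:90403461-90415954), did not pass on its brighter probe in the slope or the curve. The signal stayed between 1689 at 10 h and 2278 at 60 h (median 1948). The slope was 0.00147 ± 0.00138 (limma adjusted p = 0.382), and its sign turned under the array median (-0.00379) and the spike-in RNA (-0.00699). The dimmer probe, between 86.6 and 223, passed the curve (limma adjusted p = 0.039).

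OCLN, the first transmembrane protein found in tight junction strands (chr5:69492547-69558104), was lower in the middle of the series on its brighter probe. The signal was 560 at 3 h, highest at 4 h with 607, lowest at 32 h with 318, and 478, 486 and 406 at 60, 66 and 72 h. The 10 arrays from 14 to 54 h, between 318 and 391, all lay below the 6 arrays of slide 1, of which the lowest was 415 at 12 h. The curve passed (limma adjusted p = 1.31e-05) and the slope did not (-0.00462 ± 0.00301, limma adjusted p = 0.204), while the slopes of the slides differed (limma F test, adjusted p = 0.0338). When the slide was a block the curve just missed the threshold (limma adjusted p = 0.0568). The second probe, of nearly the same brightness (median 404), had its highest value at 28 h, 569, and did not pass the curve (limma adjusted p = 0.25).

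F11R, the adhesion molecule JAM-A (chr1:160995211-161021152), kept its signal within a 1.19-fold range on the brighter probe, from 41455 at 3 h to 49429 at 60 h. Neither the slope (0.000292 ± 0.00113, limma adjusted p = 0.845) nor the curve (0.813) passed. The slope turned sign under the array median, where it passed (-0.00497, limma adjusted p = 0.0234), and with normexp and quantile normalization it passed as a rise (0.00422, limma adjusted p = 0.00793). The dimmer probe (4359 to 5945) had a slope of -0.00407 ± 0.00147 (limma adjusted p = 0.0253).

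TJP1, the scaffold ZO-1 (chr15:29699367-29969049), rose a little and then fell. Its signal was 4919 at 3 h, 6720 at 8 h and 6761 at 14 h, then 4923 at 42 h and finally 3425, and the arrays at 60, 66 and 72 h were the 3 lowest. The slope was -0.0127 ± 0.00184 log2 units per hour (limma adjusted p = 1.35e-05) and the late mean (3452) was 0.654 of the early mean (5278). Fitted within slides it was -0.0155 (limma adjusted p = 0.0454). The slopes of the 3 slides were 0.0425 ± 0.0132 (limma adjusted p = 0.0823), -0.0196 ± 0.00397 (limma adjusted p = 0.00519) and -0.0174 ± 0.00545 (limma adjusted p = 0.0351), and they differed (limma F test, adjusted p = 0.0143). TJP1 and CLDN6 were the 2 genes of the 9 whose slope was called under each scaling and with the slide as a block.

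**Figure D1:**
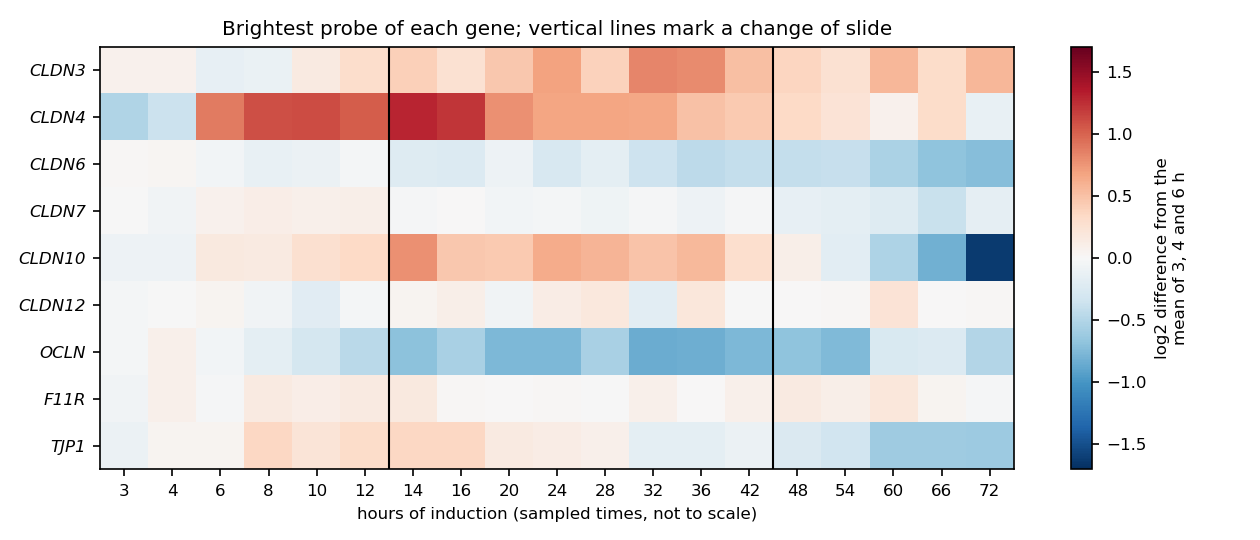
Log2 difference of each array from the mean of the 3, 4 and 6 h arrays, for the brighter probe of the 9 genes, with time points in order but not to scale and lines where the slide changes. CLDN4 is at its highest from 8 to 16 h, CLDN3 at 32 and 36 h, OCLN is lowest from 14 to 54 h, and CLDN10, CLDN6 and TJP1 are lowest at 72 h.

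Several time points lay close to the highest value of each gene, counted here with the highest one itself. For CLDN10, 4 time points lay within 2 SD of the highest (scatter around its cubic curve, 0.121 on the log2 scale), for OCLN 4, for CLDN3, CLDN6 and TJP1 6 each, for CLDN7 9, for CLDN4 and CLDN12 10 each and for F11R 11. The order of the time points within these sets is therefore not resolved.

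Whether the genes moved apart was tested within arrays, where the scaling of the array cancels. The log2 difference of 2 genes was fitted on hours for all 36 pairs (two-sided permutation test, 100000 resamples, Benjamini-Hochberg over the 36 pairs), and 16 pairs differed in slope. CLDN3 rose against CLDN6 by 0.0161 ± 0.00289 log2 units per hour (adjusted p = 0.000315), and this difference held within slides (0.0228, adjusted p = 0.0301). CLDN3 also rose against TJP1 by 0.0191 ± 0.00274 (adjusted p = 6e-05) and against CLDN10 by 0.0233 ± 0.00379 (adjusted p = 6e-05), and TJP1 fell against F11R (-0.013 ± 0.00168, adjusted p = 6e-05), each from p = 1e-05, the smallest the permutations can give. The neighbours CLDN3 and CLDN4 differed by 0.015 ± 0.0055 (adjusted p = 0.0354), a call that was lost with the slide as a block (adjusted p = 0.199) and without any 1 of the arrays at 6, 8, 10, 12, 14, 16, 60 and 72 h (adjusted p up to 0.122 without 72 h). For CLDN6 and TJP1 the difference was 0.00301 (95% interval -0.0013 to 0.00731, adjusted p = 0.204, and 0.00541 with adjusted p = 0.0442 after normexp and quantile normalization), for CLDN6 and CLDN10 it was 0.00723 (-0.00325 to 0.0177, adjusted p = 0.204), and for CLDN12 and F11R 0.00118 (-0.00205 to 0.00441, adjusted p = 0.492). With the slide as a block, 8 of the 36 pairs differed.

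**Figure D2:**
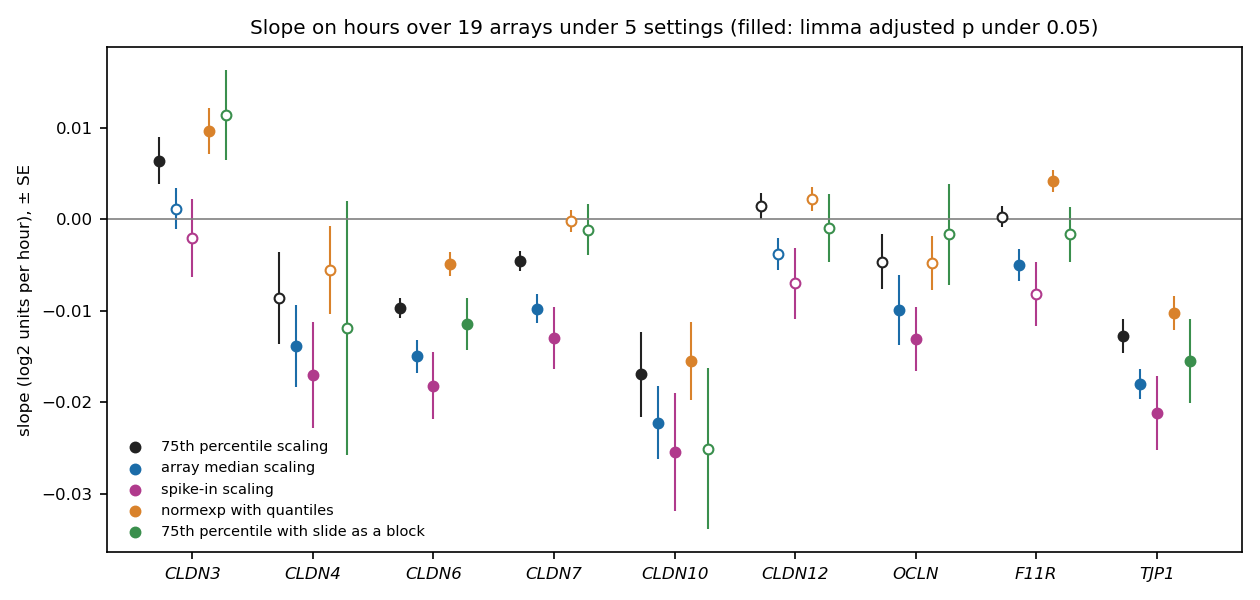
Slope on hours (log2 units per hour, bars are SE) of the 9 genes under 4 scalings and with the slide as a block, filled where the limma adjusted p is under 0.05. CLDN6 and TJP1 are filled and below 0 under all 5 settings, CLDN10 is filled under all but the slide block, and CLDN3, CLDN12 and F11R change sign.

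The genes whose course was most like that of each gene with a called slope were searched among 13960 others well above background on all arrays, by the root mean square difference of the log2 signals after centring each gene on its own mean. For CLDN6 they were EPHX1 (0.0527), CALM3 (0.0683) and ARIH2 (0.0702), against a spread of CLDN6 around its own mean of 0.22. For TJP1 they were PPP6R3 (0.0884), PSMD12 (0.0891) and SCNM1 (0.09), and for CLDN10 GPD2 (0.157), RCAN2 (0.168) and OSCP1 (0.173). For CLDN3 they were PHLDB3 (0.0987), ARFGEF3 (0.128) and COPG2 (0.131), and for CLDN7 RNF7 (0.07), CUL3 (0.07) and SSR3 (0.071). None of the 9 junction genes could be chosen here, and the measure says nothing of shared control.

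Of 17 other claudins, 11 were tested, and 4 rose and 0 fell, where 24.6% of all genes rose and 29.8% fell. With the slide as a block, 1 of the 4 rises was left (CLDN11, limma adjusted p = 0.0499). CLDN19 rose 1.64-fold, from a mean of 1588 at 3 to 6 h to 2602 at 60 to 72 h (limma adjusted p = 0.00167), as a step between slides, with 1483 to 1642 on the 6 arrays of slide 1 and 2343 to 2766 on all later ones. CLDN15 rose 1.81-fold, from 70.4 to 127 (limma adjusted p = 0.0248), and CLDN11, the claudin of myelin and Sertoli cells, 1.3-fold, from 633 to 823 (limma adjusted p = 0.00677). The fourth, picked out with its values in view, was CLDN24 (45.6 to 81.8, limma adjusted p = 0.0339). Under the array median 1 of the 11 rose and 1 fell, and under the spike-in RNA 0 rose and 2 fell. Their median difference between the windows was 0.40 on the log2 scale, against -0.05 over all genes tested. This median is the value of CLDN14, which was well above background on 5 arrays, with window means of 6.18 and 8.15. It is therefore no measure of a rise of claudins.

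Of 20 other membrane and plaque genes of the tight junction, 17 were tested, and 4 rose and 5 fell, shares close to those of all genes (24.6% and 29.8%), with a median difference of -0.26. CGN, cingulin, a plaque protein that binds ZO-1, fell from 6347 to 3806 (0.6-fold, limma adjusted p = 1.93e-05), SYMPK, symplekin, also a part of the mRNA polyadenylation machinery, from 32535 to 19541 (limma adjusted p = 2.52e-07) and LSR, the receptor angulin-1 of contacts between 3 cells, from 2755 to 1851 (limma adjusted p = 1.26e-05), and the 3 falls passed with the slide as a block too (limma adjusted p = 0.0278, 0.0114 and 0.00536). MARVELD2, tricellulin, of the family of occludin, rose from 423 to 646 (1.53-fold, limma adjusted p = 0.000394), and passed with the slide as a block (limma adjusted p = 0.0355) but not under the array median (limma adjusted p = 0.105). ARHGEF2, a GEF that cingulin holds, rose from 800 to 1278 (limma adjusted p = 0.00213) and MAGI3 from 450 to 565 (limma adjusted p = 0.0423), and both lost the call under the array median, under the spike-in RNA and with the slide as a block. CGNL1 and YBX3 also fell and JAM3 also rose, named after their values were seen. TJP3 had no matched probe.

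Among 11 polarity genes tested, 2 rose and 4 fell, where 24.6% and 29.8% of all genes did. CRB3, the crumbs protein of the apical membrane, fell from 3028 to 2071 (limma adjusted p = 0.00084), PARD3 from 8504 to 6704 (limma adjusted p = 0.0012) and PALS1 from 3300 to 2782 (limma adjusted p = 0.0118), and with the slide as a block these falls did not pass (limma adjusted p = 0.284, 0.358 and 0.301). AMOT, angiomotin, a partner of PATJ and actin, rose from 142 to 183 (limma adjusted p = 0.0195) and PATJ, a scaffold of the crumbs complex, from 212 to 252 (limma adjusted p = 0.0488), and neither passed under the array median, the spike-in RNA or the slide block. PRKCI also fell, named after its values were seen. The list's median difference was 0.15, above 0 although more of its genes fell than rose.

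Of 27 genes of adherens junctions, desmosomes and the epithelial surface, all tested, 3 rose and 12 fell, where 24.6% of all genes rose and 29.8% fell, with a median difference of -0.24. NECTIN2, an adhesion molecule of the adherens junction, fell from 22906 to 7980 (2.87-fold, limma adjusted p = 4.08e-09), NECTIN3 from 4879 to 2303 (2.12-fold, limma adjusted p = 5.04e-07) and ESRP1, a splicing factor of epithelial cells, from 2955 to 1345 (2.2-fold, limma adjusted p = 1.97e-07). With the slide as a block NECTIN2 passed (limma adjusted p = 0.0148), and ESRP1 (0.0665) and NECTIN3 (0.097) did not. PRSS8, a membrane protease, rose from 12898 to 19293 (limma adjusted p = 6.41e-05), KRT19 from 39577 to 56694 (limma adjusted p = 6.84e-05) and KRT18 from 61734 to 77532 (limma adjusted p = 0.04996), and these rises did not pass under the array median or the spike-in RNA. KRT18 first went down, from 66812 at 6 h to 45626 at 24 h, and was highest at 66 h (88207). Its curve passed (limma adjusted p = 4.12e-06). CDH1, E-cadherin, was at 13596 early and 15790 late (slope 0.0025 ± 0.00155, limma adjusted p = 0.181, curve 0.00193), and EPCAM at 39948 and 36947 (limma adjusted p = 0.431). Under the array median EPCAM passed as a fall (-0.00631, limma adjusted p = 0.00822), and CDH1 passed as a rise with normexp (0.00659, limma adjusted p = 0.00239).

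Of the transcription factors that act on junction genes, 11 of 14 activators were tested, of which 2 rose and 4 fell. Of 6 repressors, 4 were tested, of which 1 rose. Among all genes tested, 24.6% rose and 29.8% fell, so that these counts are no result about the factors. GRHL2, a grainyhead factor known to bind at CLDN4, was at 464 early and 340 late (slope -0.005 ± 0.00187, limma adjusted p = 0.0303, and 0.971 with the slide as a block). OVOL2 fell from 2857 to 1538 (limma adjusted p = 0.00467) and TFAP2C from 1153 to 656 (limma adjusted p = 0.00304), and neither fall passed with the slide as a block (limma adjusted p = 0.378 and 0.193), whereas ELF3 rose from 2250 to 4283 (limma adjusted p = 0.0293) and KLF4 from 243 to 351 (limma adjusted p = 0.00141). The rises of ELF3 and KLF4 did not pass under the array median, the spike-in RNA or the slide block, and CDX2 also fell, named after its values were seen. TWIST1 was the repressor that rose, from 152 to 288 (1.89-fold, limma adjusted p = 0.000741), but not under the array median (limma adjusted p = 0.054), the spike-in RNA (0.306) or with the slide as a block (0.156). SNAI1 was highest at 3 h (2440), lowest at 16 h (780) and back at 2151 at 60 h, so that its curve passed (limma adjusted p = 0.0196) and its slope did not (0.475). SNAI2 was well above background on 12 arrays, ZEB1 on 6 and ZEB2 on 2, with the slopes of SNAI2 and ZEB1 not called (limma adjusted p = 0.445 and 0.428), the curve of ZEB1 called (0.0248) and ZEB2 not tested.

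**Figure D3:**
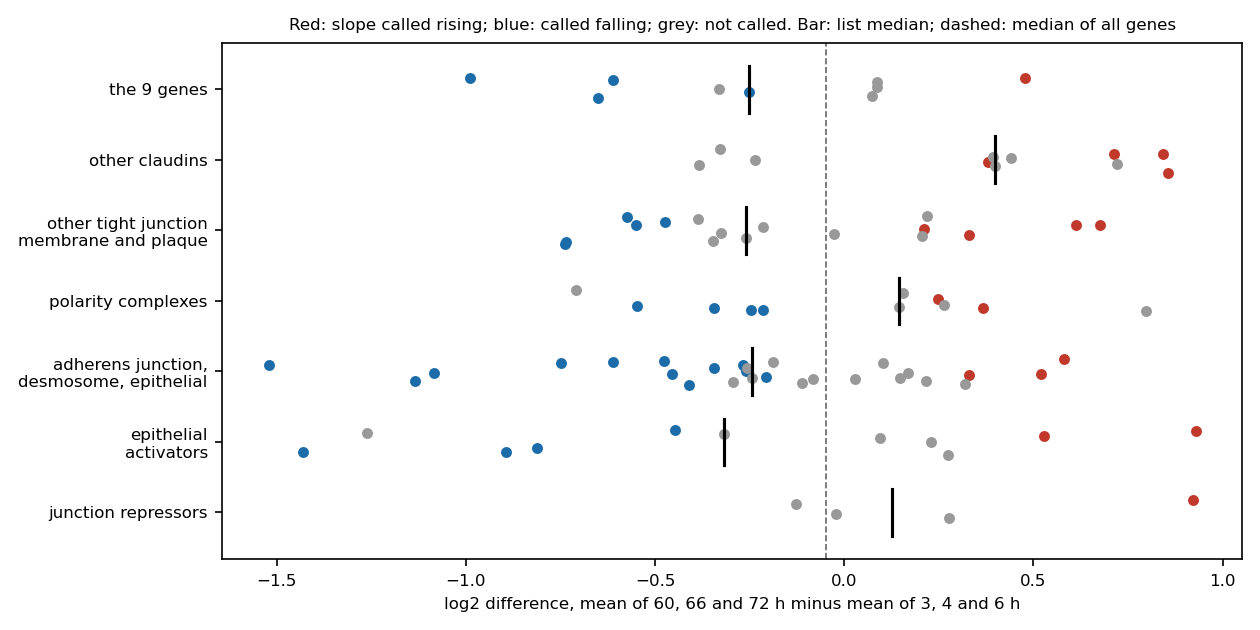
Log2 difference between the mean of 60, 66 and 72 h and the mean of 3, 4 and 6 h for each tested gene of the 9 and of 6 junction and epithelial lists, red where the slope was called rising and blue where it was called falling. The bar is the list median, from -0.32 for the activators to 0.40 for the other claudins, and the dashed line the median of all genes tested, -0.05. The median of the other claudins is the value of CLDN14, a dim probe well above background on 5 arrays.

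Over these 6 lists, 16 genes rose and 25 fell. Over all 16694 genes tested, counted in the same way, 4101 rose (24.6%) and 4979 fell (29.8%). Over all 32113 probes, which include repeated probes of a gene and probes matched to no gene, 9926 rose and 7207 fell. These probe counts were 4678 and 11117 under the array median and 1485 and 11186 under the spike-in RNA. The split in the 6 lists was 1 and 40 under the array median, 0 and 40 under the spike-in RNA, 16 and 20 with normexp and quantile normalization, and 4 and 5 with the slide as a block. Some markers of other lineages were called over the same hours, where 24.6% of all genes rose and 29.8% fell. Fewer passed with the slide as a block, 1 pluripotency marker (DNMT3B), 1 endoderm marker (AFP) and 1 of the trophoblast and amnion markers. With that block, 0 mesoderm and 0 fibroblast markers passed. Of 9 pluripotency markers tested, 0 rose and 5 fell, DNMT3B from 181447 to 101131, ZFP42 from 44263 to 24810 and L1TD1 from 120766 to 79391, and also LIN28A and POU5F1. Of 8 mesoderm markers, 4 rose and 0 fell, with KDR going from 2364 to 5969 (2.53-fold), HAND1, MESP1 and TBX6 rising as well and the summed signal of the list from between 2792 and 3800 to between 6769 and 8631. KDR was the largest part of that sum. Of 11 trophoblast and amnion markers, 5 rose and 0 fell, KRT7 from 7100 to 11104, as a step between slides (6379 to 7640 on slide 1 and 8949 to 12873 on all later arrays), and also CGA, CGB3, WNT6 and HAND1, which is in both lists. The summed signal went from between 8690 and 10042 to between 11077 and 15403, and KRT7 was the largest part of it. GATA2, picked out with its values in view, went from 257 to 89.5, with its slope not called (limma adjusted p = 0.251) and its curve called (1.58e-05). ISL1, IGFBP3 and PGF, none with a called slope, were lower late too, and GATA3 and GABRP were higher. Of 9 endoderm markers, 1 rose, TTR, and 2 fell, CER1 and AFP, the latter from 1537 to 212. Of 7 fibroblast markers tested, 1 rose, COL1A2, from 4717 to 6083, and 1 fell, PDGFRB. Of the genes in these marker lists, those given without values were named after their values were seen, and COL1A2 and KRT7 did not pass under the array median or the spike-in RNA. The part of these cell types in the course of the junction genes was not tested.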

How the data were processed

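Total RNA of 19 samples was hybridized to Agilent SurePrint G3 arrays, 1 per time point. The authors deposited Feature Extraction 10.10.1.1 output, in which the processed signal is an intensity, background-subtracted within the array and not scaled between arrays, together with flags and median pixel intensities. The deposited table of intensities is this signal times 1 factor per array (0.905 to 1.38), blank where a spot was not well above background. Which rule set these factors is not given in the sources used here.

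Here, spots flagged as outliers (0.632%) were dropped. Saturated spots numbered 0. The log2 of the processed intensity, as deposited, minus the array's 75th percentile was fitted with limma 3.58.1 (R 4.3.3, lmFit and eBayes, Benjamini-Hochberg) over the 32113 probes that 5 or more arrays held well above background. The fits were a slope on hours, a cubic polynomial and the slope by slide. The slopes of the separate slides came from 1 fit of all 19 arrays, with the scatter pooled over the 3 slides. A gene was represented by its brightest probe, and 28174 probes were matched to 20503 symbols. Lists were named by up to 3 rising and 3 falling genes with the largest change among those well above background on all 19 arrays, plus CDH1, EPCAM, GRHL2, ZEB1, ZEB2, SNAI1, SNAI2, TJP3, CGN and MARVELD2, and 1 gene of this rule is not reported here. The 9 genes, the 11 lists and the settings were chosen with earlier results of these data known. Tables and permutation tests used Python 3.11.15 (numpy 2.4.6, pandas 2.3.3, scipy 1.17.1) and plots matplotlib 3.10.9. Alternatives were scaling to the array median or the spike-in RNA, normexp on the median pixel intensities with quantile normalization, and the deposited table. Further ones were other background filters, log2 hours, a quadratic, the slide as a block, 3 to 54 h, all probes of a gene and leaving out arrays. Leaving out the 2 arrays with the fewest probes well above background, 14 and 16 h, was added after the data were seen. The fit was tested on simulated data. The number of arrays limits the precision, and dim signals are less certain.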

Additional observations from a re-analysis of the deposited data

Results flagged for a closer look

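Slopes that differed between the spans of the 3 slides were marked by limma F tests over all probes, and 25.5% of all genes differed in this way. CLDN4 (adjusted p = 0.00254) rose from 3 to 12 h and not later. CLDN10 (adjusted p = 0.000294) fell within 48 to 72 h. TJP1 (adjusted p = 0.0143) fell within 14 to 42 h and within 48 to 72 h. OCLN (adjusted p = 0.0338) was called on its brighter probe and not on the other one (0.8). The dimmer probe of CLDN7 (adjusted p = 0.00469) fell within 14 to 42 h and rose within 48 to 72 h, and its brighter probe was not called (0.366). Each span holds 1 slide, so span and slide cannot be told apart.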

How the results depend on the processing

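No paired analysis was possible because there is only 1 sample at any hour. CLDN6 and TJP1 kept the direction and the call of their slope on hours (log2 units per hour) under the 11 alternatives run and without any 1 array. With the slide as a block, 2947 probes were called for a slope instead of 17133, the 6 junction and epithelial lists held 9 called genes instead of 41, and 8 of 36 pairs of genes differed instead of 16. The slopes with that block were 0.0114 for CLDN3, -0.00112 for CLDN7 and -0.0251 for CLDN10, which lost the call, and -0.000981 for CLDN12 and -0.00165 for F11R, which turned sign, and the curve was lost for CLDN3 (limma adjusted p = 0.218), CLDN7 (0.469) and OCLN (0.0568). Scaling to the array median gave slopes of 0.00114 for CLDN3 (call lost), -0.0138 for CLDN4 and -0.00988 for OCLN (call gained), and -0.00379 for CLDN12 and -0.00497 for F11R (sign turned), curves at limma adjusted p = 0.227 for CLDN3, 0.0345 for CLDN12 and 0.00332 for F11R, and a difference between slides at 0.0518 for OCLN. Scaling to the spike-in RNA gave slopes of -0.00206 for CLDN3, -0.00699 for CLDN12 and -0.00817 for F11R (sign turned) and -0.0171 for CLDN4 and -0.0131 for OCLN (call gained), curves at limma adjusted p = 0.0224 for CLDN12 and 0.00429 for F11R, and differences between slides at 0.359 for OCLN, 0.0561 for TJP1 and 0.0475 for F11R. With normexp and quantile normalization, CLDN7 lost its slope (-0.000206) and curve (limma adjusted p = 0.613), and F11R gained both (0.00422 and 0.00341) and a difference between slides (0.0442).

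On log2 hours the slopes were -0.144 for CLDN10 (call lost) and -0.134 for OCLN (call gained), and from 3 to 54 h they were 3.57e-05 and -0.015. The slope of CLDN3 was 0.00542 in the deposited table and 0.0064 with no filter on background (limma adjusted p = 0.0745 and 0.0713), that of F11R -0.000689 in the deposited table and -0.00189 as the mean of its probes, and a quadratic in place of the cubic gave limma adjusted p = 0.0553 for CLDN4. The difference in slope of CLDN6 and CLDN10 turned to -0.00186 on log2 hours and -0.0089 from 3 to 54 h, and that of CLDN12 and F11R to -0.00197 with normexp.

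The late minus early difference (log2) under the array median, the spike-in RNA and normexp in turn was 0.11, -0.17 and 0.71 for CLDN3, -1.02, -1.30 and -0.40 for CLDN6, -0.62, -0.90 and -0.00609 for CLDN7, -1.36, -1.63 and -0.85 for CLDN10, -0.98, -1.26 and -0.44 for TJP1 and -0.30, -0.57 and 0.25 for F11R. Under the first and second of these it was -0.28 and -0.56 for CLDN12 and -0.70 and -0.98 for OCLN, and it was -0.56 for CLDN4 under the spike-in RNA. As 72 h minus 3 h it was -0.75 for CLDN6, -0.14 for CLDN7, -1.54 for CLDN10 and -0.47 for OCLN, and over all probes of a gene 0.41 for CLDN12 and -0.0924 for F11R.

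Leaving out 1 array at a time gave slopes of 0.00538 to 0.0079 for CLDN3, -0.013 to -0.00662 for CLDN4 and -0.000198 to 0.000943 for F11R (-0.000117 without 3 h), late minus early differences of -0.17 to 0.53 for CLDN4 and -1.22 (without 60 h) to -0.67 (without 72 h) for CLDN10, and 13 to 20 pairs called. The difference between CLDN6 and TJP1 passed without 3 h (adjusted p = 0.0465), and also after normexp (0.0442). The other results on the 9 genes kept their side of the threshold there, except the pair CLDN3 and CLDN4. The causes of these changes were not tested. The limits are 1 array per time point, no 0 h sample, slides that follow time, whole cultures and genes read by 1 or 2 probes, with dim probes nearer to background.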
